A study of Mus musculus with 12 samples.

Results

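Transcripts of the glycolytic enzymes, of the glucose and lactate transporters and of the hypoxia response were examined in whole adrenals of control (Ctrl) and β-catenin gain-of-function (βCat-GOF) mice. The 32 genes were chosen by name from textbook roles, of 39017 genes in the count table, and fall into 21 glycolysis genes and 11 hypoxia-response genes. Bulk mRNA sequencing was done on adrenals of 6 Ctrl and 6 βCat-GOF female mice of 10 to 11 weeks, 1 library per mouse. All 12 mice carried 1 AS Cre allele (ASCre/+), in which Cre recombinase is expressed from the aldosterone synthase gene *Cyp11b2*, and all were on a mixed sv129-C57Bl/6 background. The βCat-GOF mice carried in addition 1 Ctnnb1fl(ex3) allele (Ctnnb1fl(ex3)/+), from which Cre removes exon 3 of β-catenin, the exon that marks the protein for destruction. Cre is thus made in cells of the zona glomerulosa (zG), the aldosterone-producing outer layer of the cortex, whereas RNA came from the entire gland, including the zona fasciculata (zF), the chromaffin cells of the medulla and the blood vessels. In bulk RNA, fewer cells of a type and less RNA per cell cannot be told apart.

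Glycolysis splits glucose into pyruvate in the cytosol, and lactate dehydrogenase interconverts pyruvate and lactate. Many of its steps are catalysed by paralogous enzymes that differ in regulation and in the tissues that use them. The hypoxia-inducible factors HIF-1α (*Hif1a*) and HIF-2α (*Epas1*) are destroyed when oxygen is plentiful, after prolyl hydroxylases (*Egln1*, *Egln3*) mark them, and when oxygen is scarce they bind a short DNA motif, the hypoxia response element, and switch on glycolytic genes, the vessel growth factor *Vegfa* and others. The adrenal is a densely vascularised gland, and its cortex uses much oxygen for steroid synthesis.

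Libraries held 14090378 to 25625494 counted reads in Ctrl and 13484675 to 24951480 in βCat-GOF mice, so that differences between mice, more than counting, set the error for all but the lowest members. Levels of *Ctnnb1*, the targeted gene, were 20272.7 to 22605.6 normalized counts in Ctrl and 19229.1 to 22432.5 in βCat-GOF adrenals, but a count over the whole gene does not show the loss of exon 3 and does not check the labels. *Axin2*, a known β-catenin target, had 511.4 to 891.1 against 786.5 to 1784.1 (log2 fold change, log2FC, of 0.70 with a standard error, SE, of 0.20 and an adjusted p of 0.074 by edgeR's quasi-likelihood test). Of the 11 zG markers, 4 were called higher in βCat-GOF adrenals (*Agtr1a*, *Agtr1b*, *Vsnl1* and *Dab2*), beside 2.16% of all genes tested. Fitted levels were higher at 10 of the 11. *Kcnk3*, the most abundant, and *Cyp11b2* were not called (log2FC 0.007 and -0.18, adjusted p 0.98 and 0.82). Of the 7 zF markers 6 were tested and 2 were called higher (*Akr1b7* and *Mrap*). In the 12 fits that each left out 1 mouse, *Akr1b7* was called in 2 and *Mrap* in 1. *Hsd3b1*, the most abundant, and *Cyp11b1* were not called (-0.032 and -0.18, adjusted p 0.95 and 0.67). In 3 pairs of libraries the mouse labels share a stem. These pairs differed far beyond counting noise (chi-square per degree of freedom 42.7 to 46.1, against 16.6 to 148 for other pairs of the same group), and each library was counted as its own sample. The labels of all 6 Ctrl mice begin with the same number and those of 5 βCat-GOF mice with another, so any family or batch that follows these numbers cannot be told apart from the genotype.

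The comparison asked how the transcripts of glucose breakdown and oxygen response differed when β-catenin was stabilised by a Cre made in zG cells. Most members did not pass the test. *Pfkp*, the platelet-type phosphofructokinase, and *Ldhb*, the heart-type lactate dehydrogenase subunit, were higher in βCat-GOF adrenals, by 1.38-fold and 1.75-fold, and *Epas1* was lower, narrowly. All 32 members passed the filter on low counts. At an adjusted p under 0.05 over the 14953 genes tested, 2 of the 21 glycolysis genes rose and 0 fell, and 0 of the 11 hypoxia genes rose and 1 fell. Over all genes tested, 2.16% rose and 1.52% fell. At the 21 glycolysis genes 6 were higher and 1 was lower at an unadjusted p under 0.05, and at the 11 hypoxia genes 2 were higher and 3 lower, beside 9.73% higher and 10.7% lower over all genes tested.

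The direction of the means was mixed. Of the glycolysis genes 15 had a higher and 6 a lower fitted level in βCat-GOF adrenals, with a median log2FC of 0.10, against a median over all genes tested of 0.0001. The hypoxia genes divided into 5 higher and 6 lower, with a median of -0.033. Under the stricter cut-offs used in the study (fold change above 1.4, adjusted p under 0.05 and base mean above 100) only *Ldhb* among the members passed, where 1.48% of all genes passed as higher and 0.869% as lower. The 6 values of each group did not overlap at 1 member, *Pfkp*, with 1.61% of all genes not overlapping and higher and 1.16% not overlapping and lower.

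**Figure D1:**
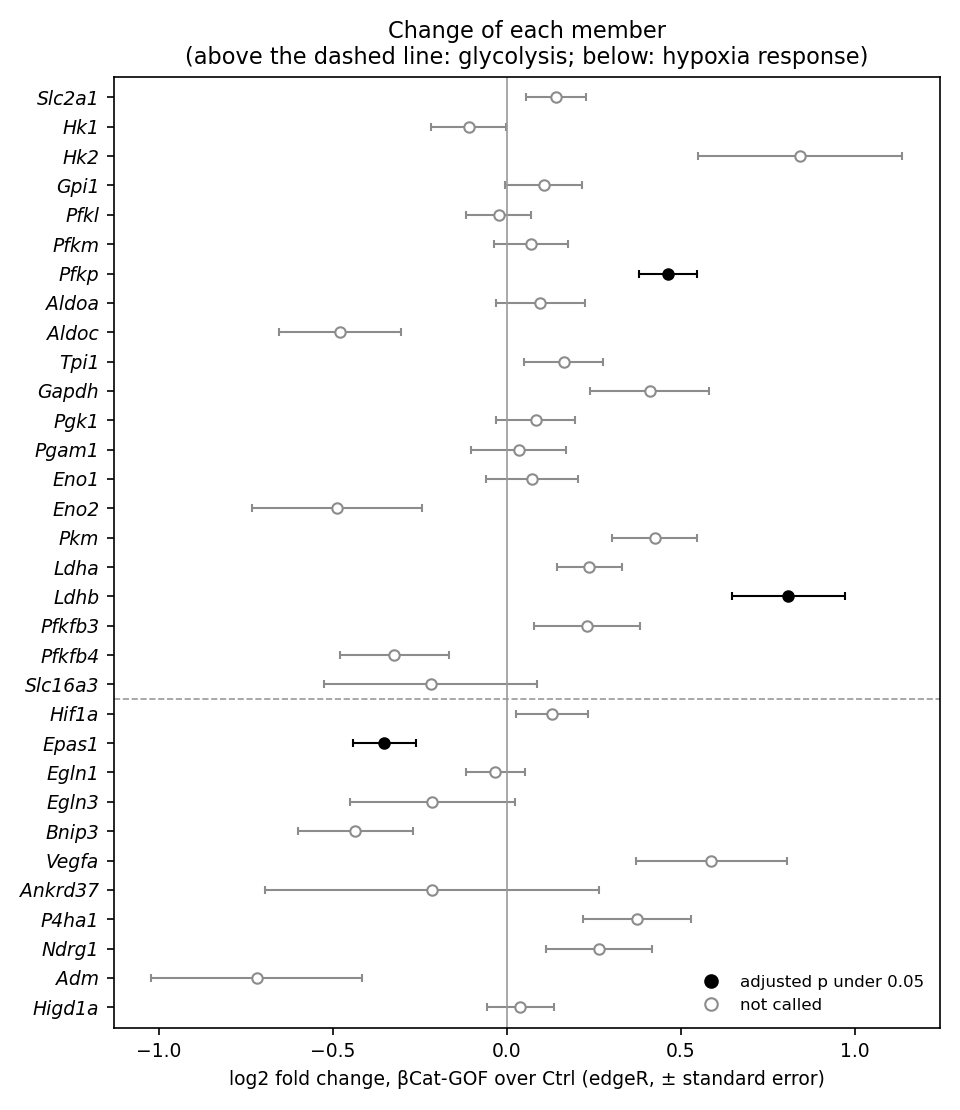
Fitted log2FC of each member (x axis, βCat-GOF over Ctrl) with its standard error, in pathway order; filled points passed the adjusted p of 0.05 in edgeR. *Pfkp* (0.46) and *Ldhb* (0.81) are the filled points on the right and *Epas1* (-0.35) the one on the left; the intervals of most other members lie near 0 or are wide.

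The hypoxia response element has the core ACGTG or GCGTG, and the TCF/LEF factors that carry β-catenin to DNA bind CTTTGAT. In the RefSeq promoter windows of GRCm38.p6, taken as the 250 bases before each transcription start, both were searched on both strands. Windows were found for 30 members (43 windows, since a gene can have several starts). Of these 43 windows 35 (81.4%) held a core of the hypoxia response element, against 38.6% of all 32851 windows, and none held CTTTGAT, which 3.21% of all windows did. Some windows of the same gene overlap. At a share of 3.21% few of 43 windows would hold CTTTGAT, so its absence is not read as a lack. The matches describe the letters of the windows and say nothing of binding. The core was present in windows of 27 members, both at genes that differed and at genes that did not.

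The windows of 4 members are given, *Pfkp* and *Ldhb* because they rose and *Ldha* and *Bnip3* because each held 5 matches, as 1.01% of all windows did at 5 or more. Capitals mark the matches, read 5′ to 3′ on the strand of the gene, so that a match on the other strand appears as CACGT or CACGC, and CACGTG is a match on both. The last base of each is the one before the start. The windows lie on GRCm38.p6 at chr13:6648772-6649021 (*Pfkp*, minus strand), chr6:142507958-142508207 (*Ldhb*, minus strand), chr7:46845554-46845803 (*Ldha*, plus strand) and chr7:138909507-138909756 (*Bnip3*, minus strand).
Pfkp: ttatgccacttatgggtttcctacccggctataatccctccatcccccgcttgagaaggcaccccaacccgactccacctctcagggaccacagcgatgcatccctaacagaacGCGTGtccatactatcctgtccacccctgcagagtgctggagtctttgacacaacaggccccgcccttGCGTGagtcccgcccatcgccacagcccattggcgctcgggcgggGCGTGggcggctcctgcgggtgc
Ldhb: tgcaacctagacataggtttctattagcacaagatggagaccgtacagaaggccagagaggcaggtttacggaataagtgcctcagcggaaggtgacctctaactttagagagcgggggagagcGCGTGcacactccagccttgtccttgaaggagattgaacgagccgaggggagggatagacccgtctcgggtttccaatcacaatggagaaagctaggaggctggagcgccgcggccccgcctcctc
Ldha: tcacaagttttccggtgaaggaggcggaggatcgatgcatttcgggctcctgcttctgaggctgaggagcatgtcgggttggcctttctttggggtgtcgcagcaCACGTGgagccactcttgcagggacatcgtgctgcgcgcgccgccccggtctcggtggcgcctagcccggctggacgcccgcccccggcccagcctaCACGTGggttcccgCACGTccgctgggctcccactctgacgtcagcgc
Bnip3: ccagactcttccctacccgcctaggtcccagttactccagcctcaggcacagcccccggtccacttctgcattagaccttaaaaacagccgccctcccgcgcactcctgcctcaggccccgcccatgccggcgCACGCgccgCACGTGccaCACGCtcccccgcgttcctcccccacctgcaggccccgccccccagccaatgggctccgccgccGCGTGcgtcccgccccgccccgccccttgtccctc
The *Ldha* window is 1 of 2. The *Pfkp* window held 3 matches of GCGTG and the *Ldhb* window 1. *Ldha*, with 5 matches of ACGTG, had a log2FC of 0.24 that was not called, and *Bnip3*, with 2 of ACGTG and 3 of GCGTG, had a lower fitted level in βCat-GOF adrenals that was not called either.

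Levels of the pathway's genes differed widely per length. In CPM (counts scaled to a common library total) per kb of exon, *Aldoa*, the muscle-type aldolase, had the highest level in Ctrl adrenals, with 438 ± 77.8 (SD, n = 6). *Tpi1*, triosephosphate isomerase, followed with 142 ± 10.3, then *Pkm*, pyruvate kinase, with 115 ± 10.3 and *Gapdh*, glyceraldehyde-3-phosphate dehydrogenase, with 93.6 ± 7.09. *Tpi1* and *Pkm* stood apart by more than their SDs between mice, as did *Pkm* and *Gapdh*. These SDs do not cover the choice of exon length (2753 bases at *Tpi1*, 5001 at *Pkm* and 4133 at *Gapdh*). Nor do they cover reads lost to copies, so the order of these genes is uncertain. *Gpi1*, *Pgam1*, *Pgk1*, *Ldha*, *Eno1*, *Pfkm* and *Ldhb* lay between 28.3 and 44.4 CPM per kb, and neighbours in this stretch did not differ beyond their SDs. At the entry to the pathway levels were lower, at 9.73 ± 0.957 CPM per kb for the glucose transporter *Slc2a1*, 6.36 ± 0.494 for *Hk1* and 3.35 ± 0.928 for *Hk2*, the hexokinases. *Slc16a3*, a lactate exporter, was lowest of the 21 genes, at 0.335 ± 0.125 CPM per kb. The 21 glycolysis genes together took 0.363% to 0.443% of counted reads in Ctrl and 0.412% to 0.506% in βCat-GOF libraries.

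**Figure D2:**
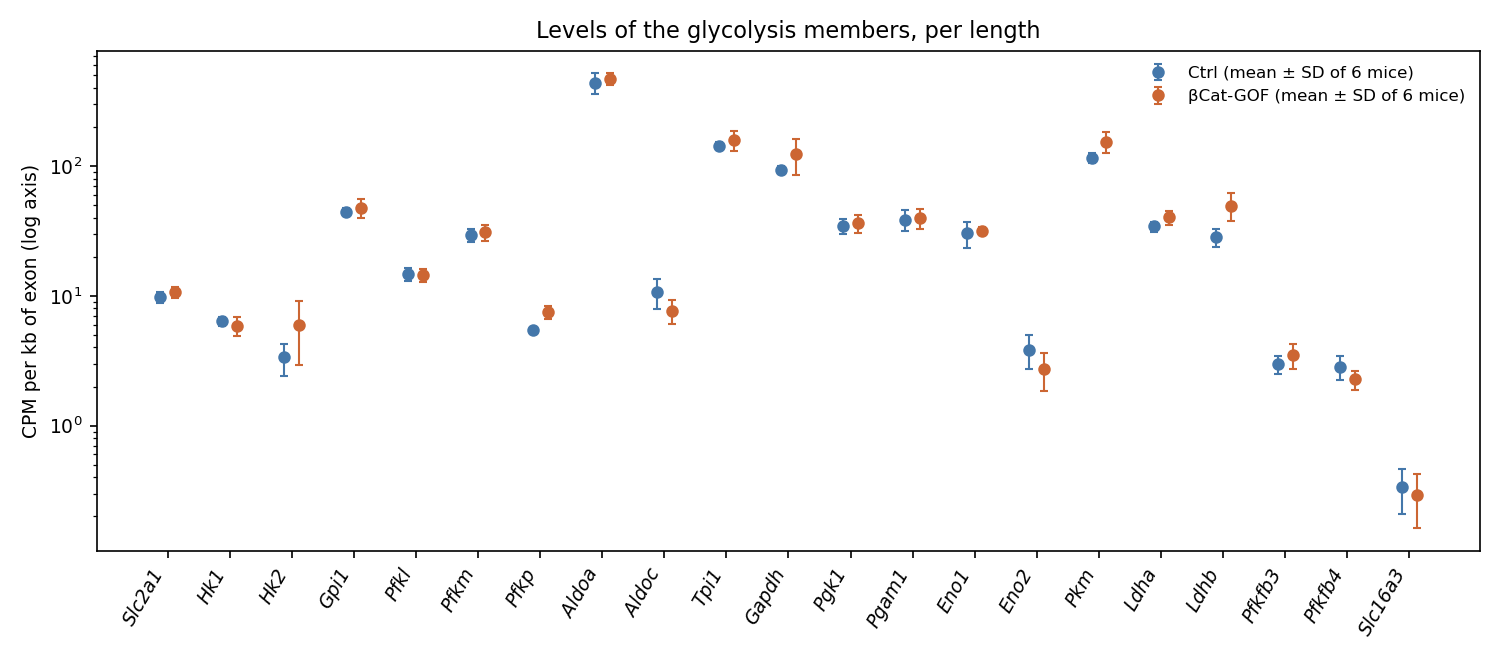
Level of each glycolysis gene in CPM per kb of exon (y axis, log scale), mean ± SD of 6 Ctrl and of 6 βCat-GOF mice. *Aldoa* is highest (438 in Ctrl) and *Slc16a3* lowest (0.335).

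Glucose enters through *Slc2a1* and is trapped by hexokinase. *Slc2a1* had 640.8, 647.2 and 815.9 normalized counts (lowest, median and highest of the 6 mice) in Ctrl and 692, 730.6 and 887.3 in βCat-GOF adrenals, which overlapped (log2FC 0.14, adjusted p = 0.39). *Hk1*, the hexokinase of most tissues, had 942.3, 1092.4 and 1187.9 in Ctrl and 832.1, 1021.1 and 1274.7 in βCat-GOF adrenals (-0.11, adjusted p = 0.61). *Hk2*, the inducible hexokinase of muscle and fat, had the largest fitted change of the 32 members upward. Its counts were 270.1, 395.8 and 532.7 in Ctrl and 330.8, 618.9 and 1348.4 in βCat-GOF adrenals, with 4 of 6 βCat-GOF mice above every Ctrl mouse. The log2FC was 0.84 (SE 0.29, adjusted p = 0.13 by edgeR), so it did not pass. DESeq2 gave 0.049. On counts simulated with the spread that edgeR estimated, DESeq2 called more unchanged genes than edgeR did, but this setting may favour edgeR. Without βCat-GOF mouse 1, which had the lowest count of its group, the edgeR log2FC of *Hk2* was 1.00 with an adjusted p of 0.042, and with the endothelial markers as a covariate it was 0.495 with an adjusted p of 0.42. The 6 adipocyte markers, led by *Cfd*, summed to 3434.9 to 17824.8 normalized counts in Ctrl and 4328.0 to 15211.2 in βCat-GOF adrenals, 0 called. Fitted levels in βCat-GOF adrenals were higher at 3 of them and lower at 3, so the sum is not a measure of the fat around the gland. The part of adipocytes in *Hk2* was not tested.

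Phosphofructokinase commits glucose to glycolysis, and the mouse has liver, muscle and platelet types. *Pfkp* (mm10, chromosome 13, 6579768 to 6648777, minus strand) had 1368.5, 1441.6 and 1552.0 normalized counts in Ctrl and 1737.1, 1955.1 and 2312.7 in βCat-GOF adrenals. Every βCat-GOF mouse was above every Ctrl mouse. The means were 1454 ± 83.0 and 2013 ± 219 (SD, n = 6 each), a log2FC of 0.46 (SE 0.083, adjusted p = 0.0075 by edgeR), and it was called in all 12 fits that each left out 1 mouse, at 0.43 to 0.50. Neither of its paralogs passed. *Pfkl* had 1671.0, 2003.2 and 2257.5 against 1719.9, 1889.4 and 2294.8 (-0.024, adjusted p = 0.92), and *Pfkm* had 1662.3, 1950.6 and 2230.5 against 1772.7, 2056.1 and 2497.3 (0.07, adjusted p = 0.76). *Pfkp* made up 11.0% ± 1.16 of the summed phosphofructokinase level per length in Ctrl and 14.2% ± 1.95 in βCat-GOF adrenals (difference 3.22 percentage points, two-sided exact permutation test over all 924 splits of 12 mice, p = 0.0065, adjusted p = 0.043 over the 10 shares tested). Each of the 3 shares with an adjusted p under 0.05, of *Pfkp*, *Aldoc* and *Epas1*, kept it in 3 of the 12 repeats that left out 1 mouse. Per length *Pfkm* was the main form in both groups (59.2% and 58.2%). These shares rest on union exon lengths of 3340 bases for *Pfkm*, 6675 for *Pfkl* and 13401 for *Pfkp*. Without division by length, mean normalized counts in Ctrl were 1962.7 for *Pfkm* and 1968.8 for *Pfkl*. An overlap with *Pitrm1* covers 5.58% of the exon bases of *Pfkp*, and overlaps with other genes cover 10.7% of those of *Pfkm*.

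The bifunctional enzymes *Pfkfb3* and *Pfkfb4* set the level of the phosphofructokinase activator fructose-2,6-bisphosphate. *Pfkfb3* had 328.3, 448.9 and 527.3 normalized counts in Ctrl and 389.1, 550.3 and 691.3 in βCat-GOF adrenals (log2FC 0.23, adjusted p = 0.42). *Pfkfb4* had 214.5, 273.6 and 348.7 against 186, 208 and 270.4 (-0.32, adjusted p = 0.26). Neither gene passed and the groups overlapped at both. The share of *Pfkfb4* in the 2 was 48.6% ± 4.90 in Ctrl and 39.7% ± 6.48 in βCat-GOF adrenals (exact permutation test p = 0.030, adjusted p = 0.074).

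In the middle of the pathway the glucose-derived sugars are cleaved and oxidised. *Gpi1*, phosphoglucose isomerase, had a log2FC of 0.11 (adjusted p = 0.64), *Aldoa* of 0.096 (adjusted p = 0.72) and *Tpi1* of 0.16 (adjusted p = 0.44). The 6 skeletal muscle markers, led by *Mylpf*, summed to no more than 45.9 normalized counts in any mouse. *Aldoc*, the brain-type aldolase, had 518.9, 640.4 and 1030.4 normalized counts in Ctrl and 350.2, 517.6 and 633.8 in βCat-GOF adrenals. The upper value in Ctrl came from mouse 4, the groups overlapped, and the log2FC of -0.48 was not called (SE 0.17, adjusted p = 0.15). *Aldoc* was 2.43% ± 0.719 of the aldolase level per length in Ctrl and 1.62% ± 0.347 in βCat-GOF adrenals (exact permutation test p = 0.013, adjusted p = 0.043), a difference of -0.811 percentage points that was -0.531 without Ctrl mouse 4 (adjusted p = 0.094).

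*Gapdh*, much used as a reference gene, had 7188.3, 7537.2 and 8939.0 normalized counts in Ctrl and 6445.2, 9750.6 and 15214.6 in βCat-GOF adrenals. The spread was 616.5 (SD) in Ctrl and 3258.2 in βCat-GOF mice, with 4 βCat-GOF mice above all Ctrl mice and 1 below them. The log2FC of 0.41 (SE 0.17) had an adjusted p of 0.19. The highest *Gapdh* counts, in βCat-GOF mice 3, 4 and 6 (10116.8, 15214.6 and 13069.3), were in the mice with the highest sums over the 7 zF markers (1514637.4, 1565049.7 and 1545679.0, against 941613.4 to 1157076.9 in Ctrl mice). The part of the zF in this spread was not tested. *Gapdh* has 98 near-identical copies in the genome, of which 88 were in the table and took 5.16% of the counts on the gene and these copies. Reads that match several copies were not counted, so the error this adds to *Gapdh* is unknown. *Pgk1*, *Pgam1* and *Eno1*, which carry the pathway on to phosphoenolpyruvate, had log2FCs of 0.083, 0.034 and 0.072, none past the test (adjusted p 0.73, 0.92 and 0.80). Of the counts on *Eno1* and the 2 of its 3 copies in the table, 12% fell on the copies.

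*Eno2*, the neuronal enolase, is made in chromaffin cells. Its counts were 203.3, 367.1 and 475.8 in Ctrl and 150.3, 264.5 and 349 in βCat-GOF adrenals, overlapping (log2FC -0.49, SE 0.24, adjusted p = 0.28). The 10 chromaffin markers, led by *Chgb*, summed to 99585.8 to 308479.2 normalized counts in Ctrl and 123567.3 to 229712.7 in βCat-GOF adrenals, 9 of them with lower fitted levels in βCat-GOF adrenals and 0 called. In the fit with these markers as a covariate the change of *Eno2* was -0.185 (adjusted p = 0.65). The part of the chromaffin cells in *Eno2* was not tested.

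Pyruvate kinase and lactate dehydrogenase end the pathway. *Pkm* had 10613.4, 11301.1 and 13541.0 normalized counts in Ctrl and 12227.1, 14966.5 and 20718.5 in βCat-GOF adrenals, and 5 of 6 βCat-GOF mice were above every Ctrl mouse. Its log2FC of 0.425 (SE 0.12) missed the threshold in edgeR at an adjusted p of 0.073. It passed in DESeq2 (0.014), which made more false calls than edgeR on simulated counts, with the endothelial covariate (0.029), with 1 library of each pair of related labels (0.040) and without βCat-GOF mouse 1 (0.029). *Pkm* encodes the M1 and M2 forms by splicing, which gene counts do not separate, and 15.3% of its exon bases overlap another annotated gene.

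*Ldhb* (mm10, chromosome 6, 142490249 to 142507957, minus strand) favours the conversion of lactate to pyruvate in oxidative tissues. It had 761.8, 839.2 and 1170.4 normalized counts in Ctrl and 918, 1642.3 and 1975.8 in βCat-GOF adrenals. The groups overlapped through βCat-GOF mouse 3, with 918, and Ctrl mouse 3, with 1170.4, and the other 5 βCat-GOF mice were above all Ctrl mice. The means were 888 ± 150 and 1559 ± 361 (SD, n = 6 each), with a log2FC of 0.81 (SE 0.16, adjusted p = 0.015 by edgeR), and all 12 fits that left out 1 mouse called it, at 0.73 to 0.92. *Ldha*, the muscle-type subunit, had 2135.5, 2166.6 and 2655.5 against 2164.5, 2791.8 and 3057.2 (0.24, adjusted p = 0.18). Per length *Ldhb* was 45.1% ± 2.47 of the pair in Ctrl and 54.5% ± 8.46 in βCat-GOF adrenals (exact permutation test p = 0.037, adjusted p = 0.074), a difference of 9.42 percentage points that did not pass after adjustment. *Ldhb* has 1 near-identical copy, over 76.8% of its transcript, and the widest of the 4 copies of *Ldha* covers 55.0%. Reads that match a gene and its copy were not counted, so the error this adds to both genes and to the share is unknown. *Slc16a3*, a lactate exporter, had 22.35 to 60.92 normalized counts in Ctrl and 16.76 to 55.35 in βCat-GOF adrenals (adjusted p = 0.73). *Slc16a1*, a lactate transporter that is not among the members, had 6.05 CPM per kb in Ctrl adrenals against 0.335 for *Slc16a3*. At *Slc16a1* 5 of 6 βCat-GOF mice were above every Ctrl mouse, and its log2FC of 0.415 was not called (SE 0.14, adjusted p = 0.12 by edgeR).

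**Figure D3:**
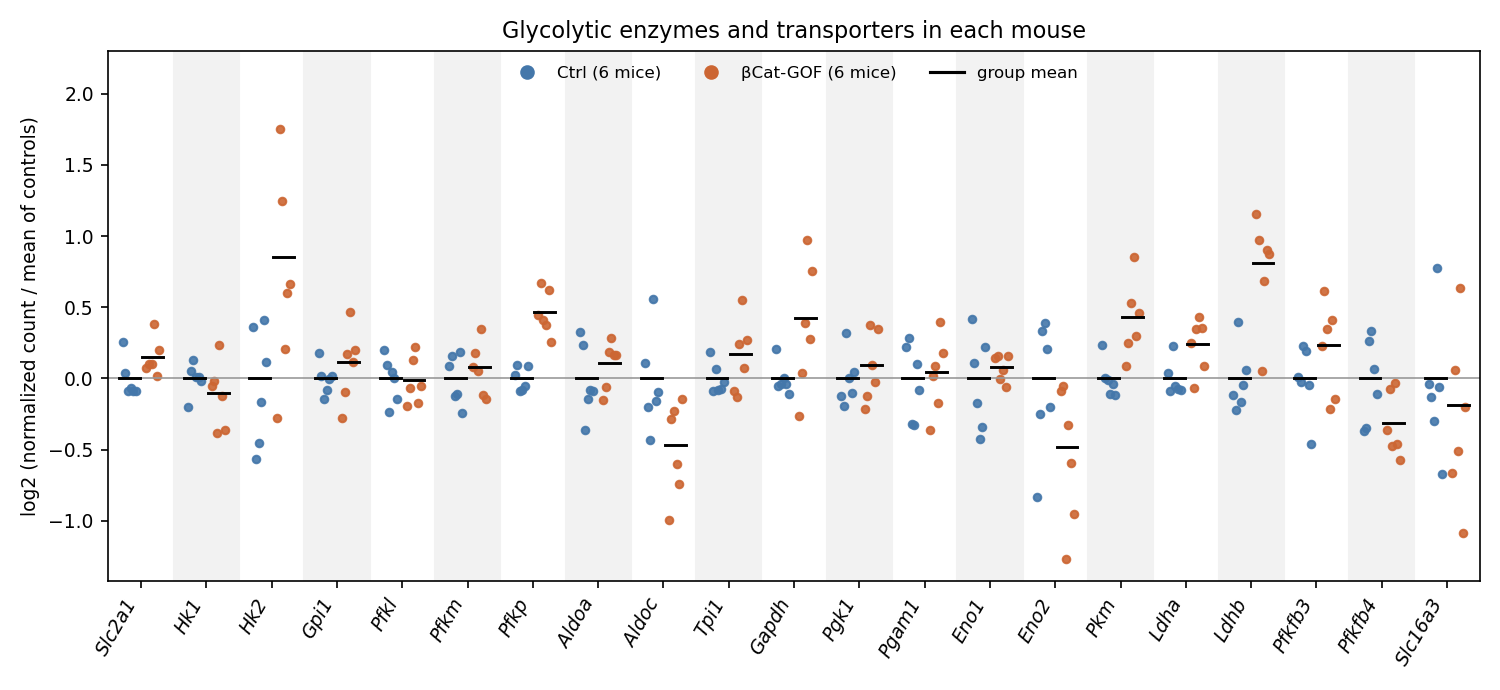
Normalized count of each glycolysis gene in each mouse as log2 of its ratio to the Ctrl mean (y axis), 6 Ctrl and 6 βCat-GOF mice; black lines are group means. The groups separate only at *Pfkp*; *Hk2*, *Gapdh*, *Pkm* and *Ldhb* show wide spread among βCat-GOF mice.

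The glycolysis genes did not shift evenly among the βCat-GOF mice. Mouse 4 had 11 of 21 above all 6 Ctrl mice and 1 below, whereas mouse 1 had 4 above and 5 below. In the same mice 27% and 19.8% of all genes tested were above all Ctrl mice, and 25.8% and 20.9% were below. The other 4 had 5 to 8 above and 1 to 3 below, with 21.6% to 25.8% of all genes above and 18.5% to 22.2% below. Summed over the 21 genes, normalized counts were 70880.0 to 90295.5 in Ctrl and 73823.5 to 107968.7 in βCat-GOF adrenals. The SD of log2 CPM was wider in βCat-GOF mice at 14 of the 21 glycolysis genes (66.7%) and 8 of the 11 hypoxia genes (72.7%), beside 70% of all genes.

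**Figure D4:**
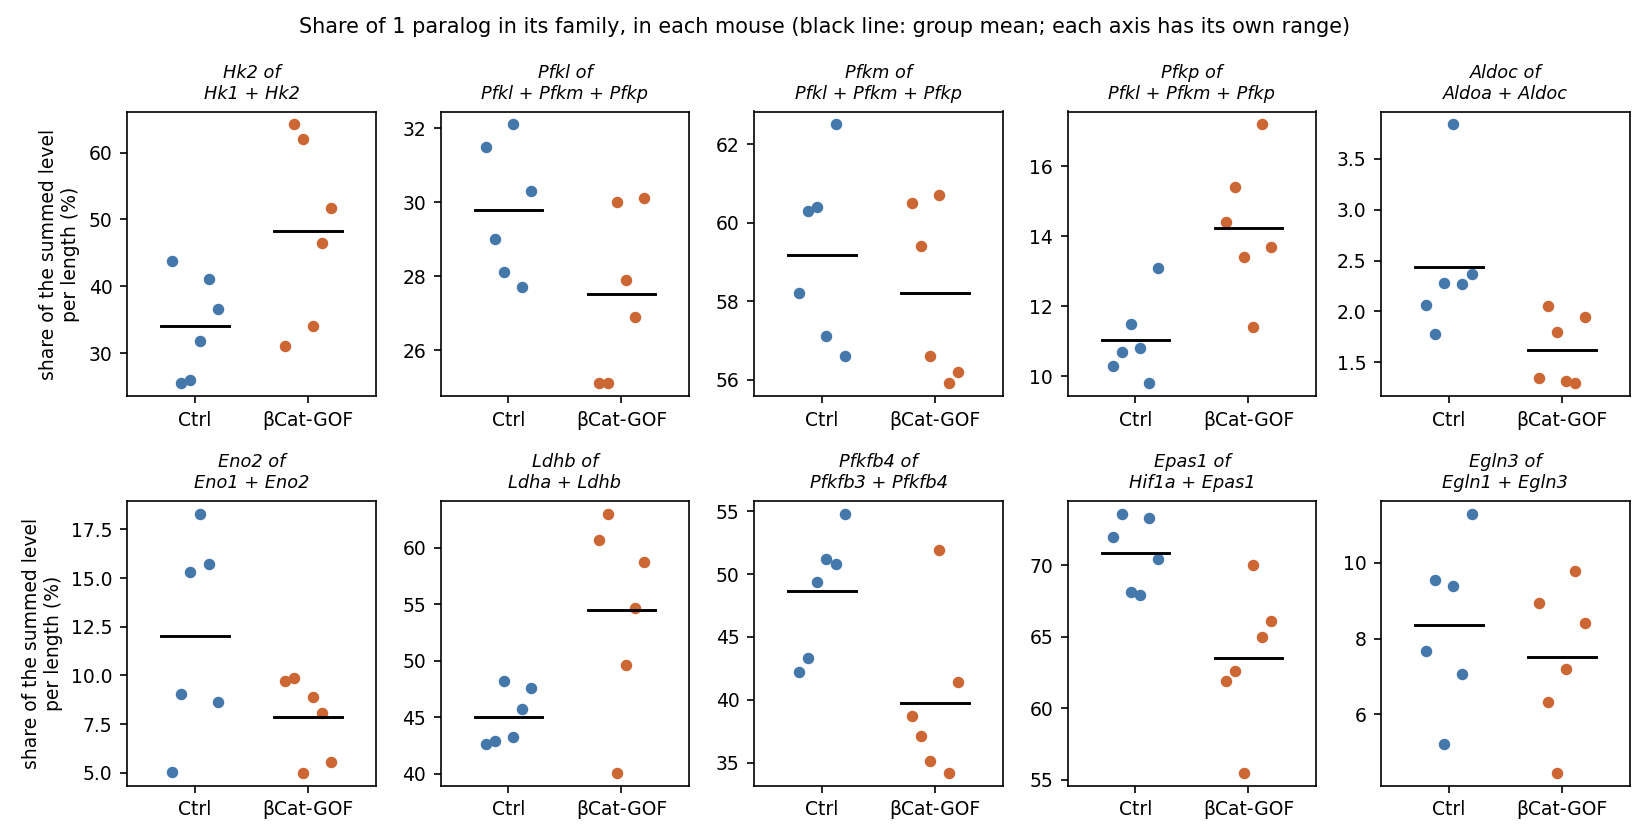
Share of a paralog in the summed level per length of its family (y axis, %, own range in each panel) in each mouse; black lines are group means. The groups overlap in all 10 panels; the shares of *Pfkp*, *Aldoc* and *Epas1* had an adjusted p of 0.043.

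Among the oxygen sensors and their factors, *Epas1* (mm10, chromosome 17, 86753700 to 86833410, plus strand) had 3309.3, 3444.0 and 3864.5 normalized counts in Ctrl and 2391.6, 2647.5 and 3345.7 in βCat-GOF adrenals. In 5 of 6 βCat-GOF mice it was below every Ctrl mouse, and mouse 6 lay within the Ctrl range. The means were 3499 ± 216 and 2761 ± 376 (SD, n = 6 each), a log2FC of -0.35 (SE 0.090, adjusted p = 0.047 by edgeR), and only 2 of the 12 fits that left out 1 mouse, those without βCat-GOF mouse 4 or 6, kept the call (adjusted p 0.023 to 0.098 over the 12). *Epas1* is abundant in endothelial cells. The 10 endothelial markers, led by *Kdr*, all had lower fitted levels in βCat-GOF adrenals, 0 called, with sums of 14988.8 to 18607.7 normalized counts in Ctrl and 13295.1 to 19053.1 in βCat-GOF adrenals. With them as a covariate the log2FC of *Epas1* was -0.25 (adjusted p = 0.12). The part of the endothelial cells in *Epas1* was not tested.

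*Hif1a* did not pass, at 1359.2, 1490.0 and 1751.0 normalized counts in Ctrl and 1388.6, 1555.0 and 2159.9 in βCat-GOF adrenals (log2FC 0.13, adjusted p = 0.52). *Epas1* was 70.9% ± 2.51 of the summed level of both factors per length in Ctrl and 63.5% ± 4.86 in βCat-GOF adrenals (exact permutation test p = 0.0087, adjusted p = 0.043). The prolyl hydroxylases did not pass. *Egln1*, the main oxygen sensor, had 1101.3 to 1370.7 in Ctrl and 1096.5 to 1398.5 in βCat-GOF adrenals (-0.033, adjusted p = 0.86), and *Egln3*, itself a HIF target, had 54.86 to 124.3 and 48.32 to 100.5 (-0.21, adjusted p = 0.66).

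The HIF targets went in both directions, and none passed the test. *Vegfa*, the growth factor for vessels, had 3792.5, 5253.4 and 6056.4 normalized counts in Ctrl and 4636.5, 6874.4 and 12568.7 in βCat-GOF adrenals, with 3 βCat-GOF mice above every Ctrl mouse (log2FC 0.59, SE 0.22, adjusted p = 0.15). *P4ha1*, a collagen prolyl hydroxylase, had 1048.3, 1431.6 and 1682.9 against 1414.6, 1718.3 and 2762.1 (0.37, adjusted p = 0.19). On the other side, *Bnip3*, which promotes removal of mitochondria, had 2385.0, 3723.2 and 4445.2 in Ctrl and 1978.1, 2576.4 and 4029.0 in βCat-GOF adrenals (-0.43, SE 0.17, adjusted p = 0.16). The widest of its 5 near-identical copies covers 94.2% of its transcript, and 22.3% of its exon bases overlap another annotated gene, so its counts are less certain.

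*Adm*, the vasodilator peptide adrenomedullin, had the largest fitted change downward. It had 215.4, 375.7 and 580.9 normalized counts in Ctrl and 126.3, 207.2 and 468.4 in βCat-GOF adrenals (log2FC -0.72, SE 0.30, adjusted p = 0.20). The high value in βCat-GOF adrenals was that of mouse 1, and the other 5 had 224.2 or fewer. Without that mouse the log2FC was -1.05 with an adjusted p of 0.023, and with 1 library of each pair of related labels it was -1.18 with an adjusted p of 0.015. *Ndrg1* (0.26, adjusted p = 0.35) and *Higd1a*, a mitochondrial protein of hypoxic cells (0.038, adjusted p = 0.86), lay within the spread. *Ankrd37* had 0.975 to 24.16 normalized counts over the 12 mice, so that a change of this size was not detectable at this depth. Its only match in the search for copies was *Lrp2bp*, a protein-coding gene identical to it over 20.2% of the transcript. *Lrp2bp* and *Ufsp2* overlap 26.4% of the exon bases of *Ankrd37*. Of the counts on *Ankrd37* and *Lrp2bp*, 37.7% fell on *Lrp2bp*.

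**Figure D5:**
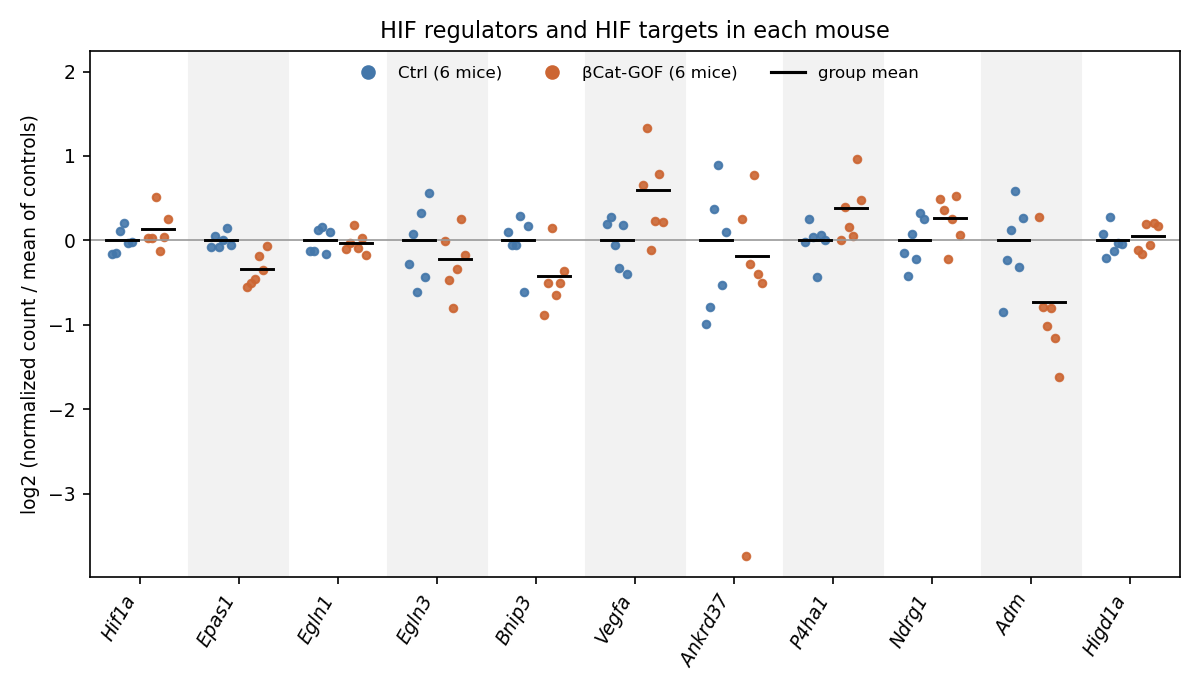
Normalized count of each hypoxia-response gene in each mouse as log2 of its ratio to the Ctrl mean (y axis), 6 Ctrl and 6 βCat-GOF mice; black lines are group means. *Epas1* is lower in all but mouse 6 of the βCat-GOF mice, *Vegfa* and *P4ha1* spread upward, *Bnip3* and *Adm* spread downward, and the groups overlap at every gene.

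Further genes of the same pathways were counted from lists. Of 26 other glycolysis genes 19 were tested and 0 were called by edgeR, with 3 higher and 1 lower at an unadjusted p under 0.05. Over all genes tested, 9.73% were higher and 10.7% lower at this unadjusted p, and 2.16% were called higher and 1.52% lower. The smallest p values were at *Hk3*, a hexokinase of myeloid cells (-0.83, adjusted p = 0.079), and *Slc2a4*, the insulin-regulated glucose transporter of muscle and fat (0.73, adjusted p = 0.085). Beside *Hk3*, the 6 macrophage markers, led by *C1qa*, summed to 3254.9 to 5033.9 normalized counts in Ctrl and 2833.3 to 4545.4 in βCat-GOF adrenals. Of these, 2 were called lower by edgeR, *Adgre1* and *Mrc1* (adjusted p 0.046 and 0.0495). In the 12 fits that each left out 1 mouse, *Adgre1* was called in 3 and *Mrc1* in 1. The part of macrophages in *Hk3* was not tested. Of 14 gluconeogenesis and pentose phosphate genes 13 were tested and 0 were called, with 2 higher and 0 lower at an unadjusted p under 0.05, those with the smallest p being *G6pc* (1.21, adjusted p = 0.11) and *G6pdx*, which opens the NADPH-forming pentose pathway (0.30, adjusted p = 0.15).

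Of the 14 other regulators of HIF 0 were called, with 1 lower at an unadjusted p under 0.05, beside 10.7% of all genes tested. *Arnt2*, a partner of the HIF subunits, had 1083.8, 2081.7 and 2925.2 normalized counts in Ctrl and 823.2, 1064.4 and 1744.6 in βCat-GOF adrenals (-0.89, SE 0.25, adjusted p = 0.065), and *Siah2* came next (0.47, adjusted p = 0.31). Of 32 other HIF targets 29 were tested, and 2 were called, both higher, beside 2.16% of all genes tested. Fitted levels were higher at 19 and lower at 10. At an unadjusted p under 0.05, 5 were higher and 0 lower, beside 9.73% higher and 10.7% lower over all genes tested. Groups without overlap and higher in βCat-GOF adrenals were found at 1.61% of all genes tested, and lower at 1.16%. *P4ha2*, the sister of *P4ha1*, had 562.0, 627.4 and 705.2 normalized counts in Ctrl and 735.5, 855.7 and 932.5 in βCat-GOF adrenals, without overlap (log2FC 0.44, SE 0.084, adjusted p = 0.011), and was called in all 12 fits that left out 1 mouse. *Cxcr4*, the receptor of the chemokine CXCL12, had 385.9, 522.8 and 1034.8 against 670.5, 1386.5 and 2199.2 (1.24, SE 0.32, adjusted p = 0.048), and was called in 3 of these 12 fits. *Car9*, a carbonic anhydrase that HIF strongly induces, was below the filter, with 7 to 15 counts in Ctrl libraries and 1 to 4 in βCat-GOF libraries. All 6 βCat-GOF mice were below every Ctrl mouse in normalized counts, and in the edgeR fit without a filter its log2FC was -1.90 (adjusted p = 0.017), while at these counts the size of the change is imprecise.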

How the data were processed

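Total RNA of whole adrenals was made into Illumina TruSeq mRNA libraries, 1 per mouse. The authors trimmed reads, aligned them to mm10 with STAR, and counted uniquely mapped reads per gene with featureCounts 1.4.4, and the deposited counts are whole numbers. The deposited normalized table is a signal, the counts divided by 1 size factor per library by the authors (DESeq2 1.6.3 is named), and only its factors and gene names were used. The annotation release and the strand setting are not given in the sources used here. Because only uniquely mapped reads were counted, genes with near-identical copies lose reads, and overlapping genes could not be separated by strand.

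Groups came from the labelled genotype. Of 39017 genes, 14953 passed filterByExpr and were fitted with edgeR 4.0.16 in R 4.3.3 (TMM, quasi-likelihood test, Benjamini-Hochberg adjustment over all genes tested, call at an adjusted p under 0.05). P-values measure the spread between these 12 mice. Normalized counts are counts divided by median-of-ratios factors. Levels per length are CPM per kb of union exon (GENCODE M21). Shares of paralogs used levels per length and a two-sided exact permutation test, whose smallest p is 0.0022. DESeq2 1.42.0 and sva 3.50.0 served as alternatives. The fits were tested on simulated data, where both tools missed part of the changes, so a gene that did not pass may still have changed. These data were drawn with the spread that edgeR estimated, so they do not compare the 2 tools evenly. Near-identical copies were found with blastn 2.17.0, at 95% identity or more over at least 10% of the transcript. The search also returned genes that overlap a member, such as *Lrp2bp* at *Ankrd37*. Named were all members and, of each pathway list, the called genes or the 2 with the smallest p. Of each cell list used, the most abundant gene and at most 4 called genes were named. Some genes were named outside this rule, among them *Slc16a1*, *Car9*, *Cyp11b2* and *Cyp11b1*. The members, lists and tests were chosen with earlier results of these data known.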

Additional observations from a re-analysis of the deposited data

Results flagged for a closer look

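In 7 of the 84 groups of 6 values examined, 1 mouse lay farther from the rest than Dixon's 95% limit, where chance flags about 1 in 20. Ctrl mouse 1 was highest at *Slc2a1* (815.9 normalized counts, next 701), *Gapdh* (8939.0, next 7764.3) and *Pkm* (13541.0, next 11509.3). It also had the lowest chromaffin marker sum of the Ctrl mice, 99585.8. Ctrl mouse 3 was highest at *Ldha* (2655.5, next 2329.6). Ctrl mouse 4 was highest at *Slc16a3* (60.92, next 34.66) and in the share of *Aldoc* in the aldolases (3.835%, next 2.372%). βCat-GOF mouse 1 was highest at *Adm* (468.4, next 224.2).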

How the results depend on the processing

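The number of glycolysis genes called higher was 2, and became 4 with DESeq2 and 4 with the endothelial marker covariate, 1 under the study's cut-offs, and 2 to 4 when 1 mouse was left out, with 4 only without βCat-GOF mouse 1. On counts simulated with the spread that edgeR estimated, DESeq2 made more false calls than edgeR, and edgeR missed more of the changed genes. The 1 hypoxia gene called lower, *Epas1*, became 0 with DESeq2 size factors, with the deposited size factors, with no filter, with the chromaffin or the endothelial covariate and under the study's cut-offs, and 0 to 1 when 1 mouse was left out. With 1 library of each pair of related labels *Epas1* had an adjusted p of 0.087 and *Adm* was called in its place. *Pfkp* and *Ldhb* kept their calls in each alternative fit (highest adjusted p 0.0363 and 0.0441), and *Pfkp* missed the fold limit of the study's cut-offs. Small log2 fold changes turned direction, and the cause was not tested. With the chromaffin covariate *Ankrd37* was 0.227, *Egln1* 0.016, *Eno1* -0.013 and *Pgam1* -0.108, and with the endothelial covariate *Hif1a* was -0.016, *Pfkfb3* -0.077 and *Pfkl* 0.051, and with 1 library of each related pair *Pfkl* was 0.007. When 1 mouse was left out *Ankrd37* ranged from -0.464 to 0.049, *Egln1* from -0.081 to 0.001, *Pfkl* from -0.078 to 0.026 and *Pgam1* from -0.038 to 0.111. The shares called lost their call with 1 library of each related pair (*Aldoc* -0.887, *Epas1* -7.48 and *Pfkp* 3.12 percentage points, adjusted p = 0.093 each), where fewer mice allow fewer splits. The share of *Pfkl* passed without length correction (-4.19 percentage points). When 1 mouse was left out, the differences ranged from -0.941 to -0.531 for *Aldoc*, -8.67 to -5.77 for *Epas1* and 2.64 to 3.79 for *Pfkp*, each called in 3 of 12 fits, and from 7.72 to 12.3 for *Ldhb* and -11.3 to -7.64 for *Pfkfb4*, each called in 1. No paired analysis was possible because the labels give no replicate numbers shared between the groups. At a few counts per library, as at *Ankrd37*, depth limits what can be seen.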
